A study of Mus musculus with 12 samples.

Results

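A set of 40 genes of the lysosome and of autophagy was followed through fat-cell differentiation of mesenchymal stem cells from mouse bone marrow, which are able to form fat, bone or cartilage. The genes were chosen by symbol from the table of read counts, and all 40 of them were among its 23955 symbols. They comprise 11 cathepsins, 6 glycosidases, 6 other proteins of the lysosomal lumen, 8 membrane proteins, 8 autophagy genes and Tfeb, a transcription factor of lysosomal genes. The cells were a commercial stock from female C57BL/6 mice used at passages 9 to 10, and every group, the vehicle included, was kept for 14 days with 5 ug/mL insulin, 1 uM dexamethasone and 0.5 mM isobutylmethylxanthine to start fat-cell formation. On top of this, 4 libraries received 50 nM tributyltin (TBT), 4 received 500 nM rosiglitazone (ROSI) and 4 received 0.1% DMSO as the vehicle. Rosiglitazone activates PPARγ, the nuclear receptor that drives fat-cell formation, and tributyltin is an organotin compound that binds retinoid X receptors as well as PPARγ. Whether the 4 libraries of a treatment are separate cultures is not stated, so p-values measure only the spread among these libraries, which may be technical.

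Lysosomes are acidic compartments in which hydrolases break down proteins, glycans and lipids delivered by endocytosis and by autophagy. Cathepsins are their main proteases, glycosidases remove sugars from glycoproteins and glycolipids, and membrane proteins form the protective coat, carry products out and release calcium. In autophagy, cytoplasm is enclosed by a membrane decorated with proteins of the LC3 and GABARAP families and then handed to the lysosome. TFEB switches on many lysosomal and autophagy genes together through a short DNA element with the core CACGTG. In fat cells the lysosomal acid lipase frees fatty acids from lipid delivered to the lysosome.

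Levels are given in CPM (counts-per-million of the TMM-scaled library total), and 39 of the 40 members passed the filter on low counts. A gene was called when its edgeR quasi-likelihood p, adjusted by the Benjamini-Hochberg method over all 12323 genes tested, was under 0.05. The exception to the filter was Ctss, cathepsin S of antigen-presenting cells, with 2 counts over the TBT libraries, 0 over the ROSI libraries and 11 over the DMSO libraries. The count of 0 in ROSI allows a level of up to 0.132 CPM (3 counts over the 4 libraries, counting error only).

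The changes in the set were small. The members called were mostly lower with TBT and mostly higher with ROSI, but with ROSI the members at an unadjusted p under 0.05 split evenly. With TBT, 0 members rose and 7 fell against DMSO, namely Ctsa, Ctsd, Gla, Hexa, Man2b1, Mcoln1 and Cd63. With ROSI, 6 members rose (Ctsl, Neu1, Lipa, Cd68, Sqstm1 and Ulk1) and 2 fell (Gusb and Man2b1). Against ROSI, 1 member was higher in TBT (Ctsz) and 8 were lower (Ctsd, Ctsl, Gla, Lipa, Mcoln1, Map1lc3b, Sqstm1 and Ulk1). The folds behind these 24 calls ran from 1.33 to 2.03, and 16 members were called at least once.

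The counts of members can be read against all genes tested. In TBT against DMSO 17.9% of the 39 tested members fell, while 7.03% of all genes did and 8.22% of all genes rose. At an unadjusted p under 0.05, 2 members were higher and 12 lower in this comparison, and DESeq2 called 1 higher. With upper-quartile factors in place of TMM, 9 members fell and 0 rose, beside 9.28% and 6.07% of all genes. In ROSI against DMSO 15.4% of members rose against 10.0% of all genes, and 5.13% of members fell against 12.6% of all genes. At an unadjusted p under 0.05, 7 members were higher and 7 lower with ROSI, and 19 fold changes lay above 0 and 20 below. Without DMSO replicate 1, 1 member rose and 2 fell with ROSI, beside 7.48% and 10.3% of all genes. The share of all genes at an unadjusted p was not counted. In TBT against ROSI 20.5% of members were lower against 11.1% of all genes, and 2.56% were higher against 12.8%. The median log2 fold change over the tested members was -0.20 in TBT against DMSO, -0.01 in ROSI against DMSO and -0.23 in TBT against ROSI, while the median over all genes was -0.01, 0.01 and 0.02. Called in either direction were 17.9% of members in TBT against DMSO (15.2% of all genes), 20.5% in ROSI against DMSO (22.6% of all genes) and 23.1% in TBT against ROSI (23.9% of all genes). In TBT all 4 libraries lay below all DMSO libraries for 6 members and above them for 0, beside 8.26% and 7.42% of all genes. In ROSI they lay above all DMSO libraries for 8 members and below them for 5, beside 13.0% and 15.4% of all genes. In TBT they lay below all ROSI libraries for 8 members and above them for 0, beside 9.89% and 10.9% of all genes. The comparisons share libraries with one another, and these shares are a description with no test of the set.

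One TBT library stood apart from the other 3. Across genes, the mean r of TBT replicate 4 was 0.953 with the other TBT libraries and 0.961 with the DMSO libraries. The precursor of ribosomal RNA, Rn45s, took 6.85% of its counts and 0.399% to 0.670% of those of the other TBT libraries. It took 1.36% to 9.27% in ROSI and 2.64% to 6.18% in DMSO. By this measure TBT replicates 1 to 3 lay below every ROSI and DMSO library, and replicate 4 lay within the ROSI range. The summed level of the 40 members was 7117, 7087 and 7620 CPM in TBT replicates 1 to 3 and 8834 CPM in replicate 4, against 8565 to 9102 CPM in ROSI and 8635 to 9932 CPM in DMSO. The TBT sum thus lay below every ROSI and DMSO library in replicates 1 to 3 and within their range in replicate 4. The most abundant members weigh most in this sum, namely Ctsb, Lamp2, Ctsl, Gabarapl1 and Lamp1. With all libraries these were not called in TBT against DMSO. Without replicate 4, 11 members were lower and 2 higher in TBT than in DMSO, beside 16.1% and 16.6% of all genes. Against ROSI 15 were lower and 2 higher in TBT, beside 18.3% and 19.9% of all genes. The 7 and 9 members called with all libraries were among those called without it. In ROSI against DMSO, 5 single libraries moved the count of 8 called members by over 1.5 times, to 3 without DMSO replicate 1 and to 5 without DMSO replicate 2 or ROSI replicate 1, 2 or 3. The 7 calls in TBT against DMSO became 4 without DMSO replicate 1 or TBT replicate 2.

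**Figure D1:**
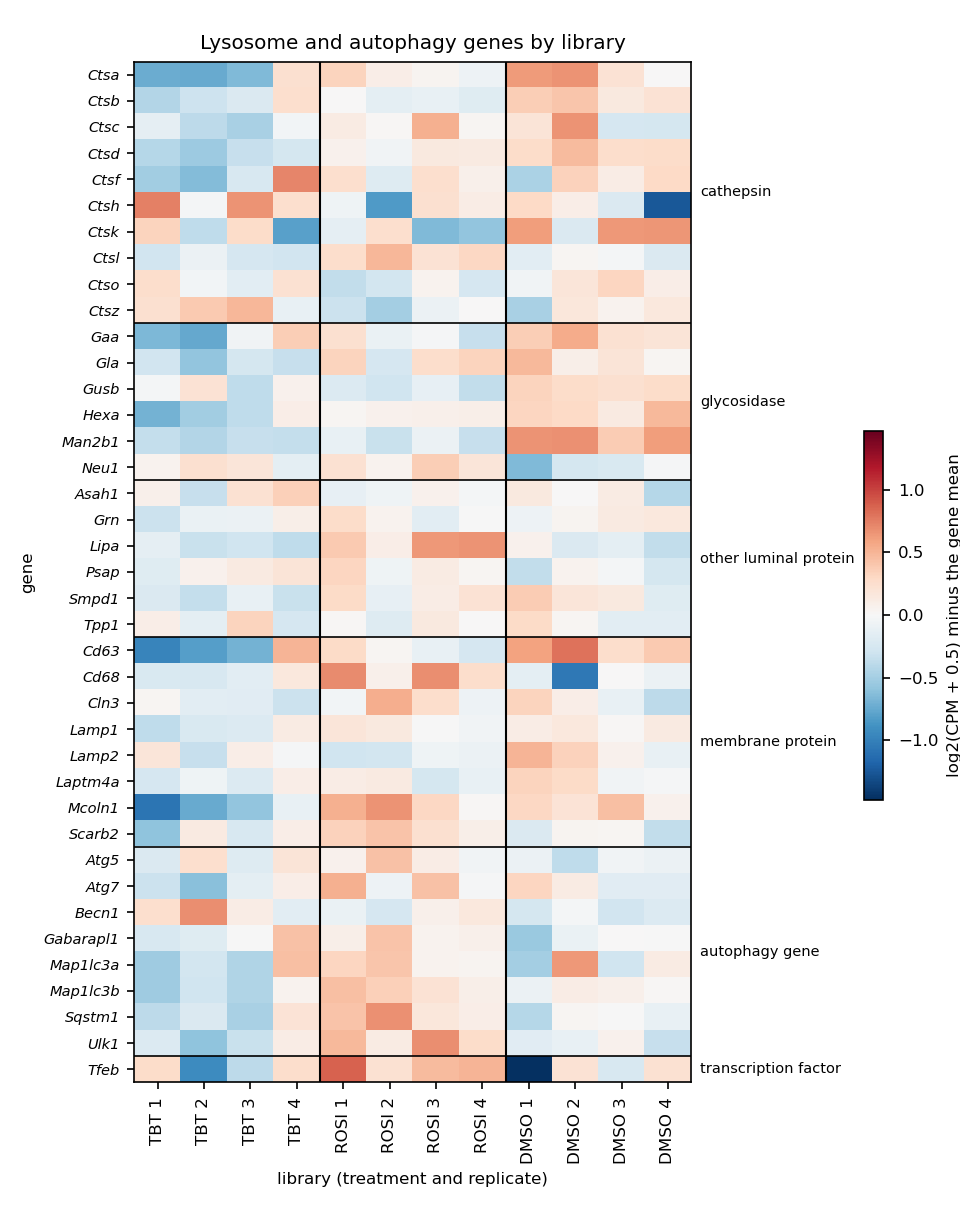
Rows are the 39 tested members grouped by role, columns are the 12 libraries, and colour is log2 of CPM plus 0.5 minus the mean of the gene over all libraries (the scale ends at the largest deviation, 1.48). TBT replicates 1 to 3 are blue for many cathepsins, glycosidases and membrane proteins, while TBT replicate 4 is closer to the DMSO columns.

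GC content of the transcripts moved with the same libraries. The median GC content was 53.5% over the 39 tested members and 50.5% over the 11736 tested genes with a value, and it was 55.1% over the 7 members that fell in TBT against DMSO. Between the GC-richest and the GC-poorest 20% of genes, the difference of median log2 deviations was -0.55, -0.44 and -0.265 in TBT replicates 1, 2 and 3. It was 0.105 in TBT replicate 4, -0.03 to 0.43 in ROSI and 0.05 to 0.265 in DMSO. The median deviation of the members was -0.24, -0.29 and -0.20 in TBT replicates 1 to 3 and 0.10 in TBT replicate 4. With offsets corrected for GC content, an alternative chosen after seeing the data, 7 members were lower and 2 higher in TBT against DMSO, and the 7 lower ones were those called without the correction. In TBT against ROSI the corrected fit called 8 members lower and 1 higher, and 8 of these were among the 9.

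**Figure D2:**
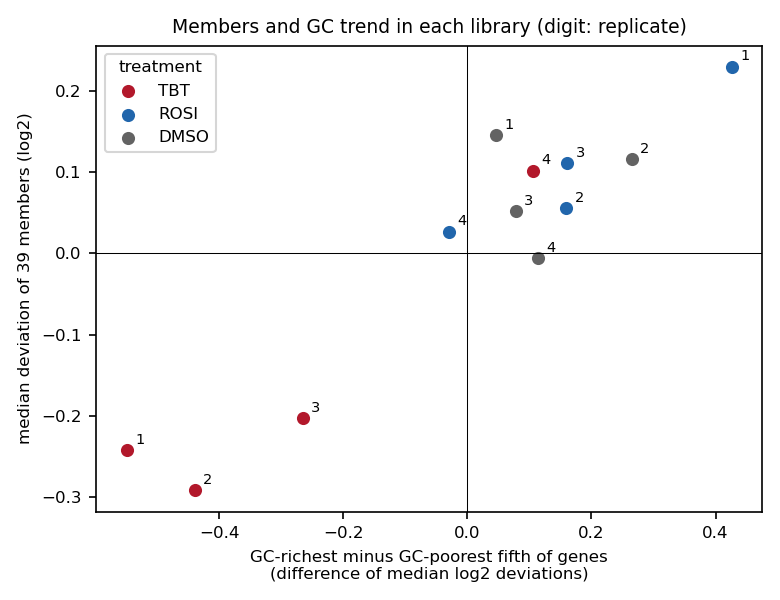
Each point is a library, with the GC-richest minus the GC-poorest 20% of genes on the x axis and the median deviation of the 39 tested members on the y axis, both on the log2 scale; digits are replicate numbers. TBT replicates 1 to 3 lie at the lower left, and TBT replicate 4 lies among the ROSI and DMSO libraries.

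The libraries held stromal and fat-cell markers, while most macrophage markers were at or near 0. Mesenchymal stromal markers summed to 4385 to 5207 CPM in TBT, 2786 to 3245 CPM in ROSI and 5354 to 6351 CPM in DMSO. The largest parts were Cxcl12, Pdgfra, Itgb1, Col1a2 and Ly6a, while Eng, of the same list, had 21 counts in all. Of 11 tested, 0 rose and 3 fell with TBT, and 0 rose and 6 fell with ROSI, against DMSO. Nt5e and Vcam1 had higher means in TBT and ROSI than in DMSO. Adipocyte markers summed to 3272 to 4239 CPM in TBT, 7111 to 8689 CPM in ROSI and 1391 to 3020 CPM in DMSO. The list did not move as one in TBT against DMSO, where 4 of 12 rose and 2 fell. Lpl, lipoprotein lipase, made up much of the sum, at 2176 ± 506 CPM in TBT and 996 ± 310 CPM in DMSO, while the adipokine gene Adipoq was at 2.30 ± 0.856 CPM in TBT and 10.7 ± 3.26 CPM in DMSO and the acyl-CoA synthetase gene Acsl1 at 117 ± 3.99 CPM in TBT and 202 ± 93.6 CPM in DMSO (SD, n = 4). In ROSI against DMSO 10 of 12 rose and 0 fell. Because these are bulk libraries, fewer cells of a type and less RNA per cell cannot be told apart, and the part of the adipocyte share in the differences below was not tested. The 18 macrophage markers in the table summed to 12.6 to 26.5 CPM in TBT, 9.23 to 18.3 CPM in ROSI and 18.9 to 31.1 CPM in DMSO. Of these, Tyrobp, C1qa, C1qb and C1qc had 0 counts in every library, and the largest contributor was Cd14, at 11.3 ± 6.32 CPM in TBT, 6.59 ± 2.48 CPM in ROSI and 12.1 ± 2.25 CPM in DMSO (SD, n = 4). The 9 osteoclast markers summed to 43.97 to 52.2 CPM in TBT, 32.5 to 42.6 CPM in ROSI and 45.4 to 68.8 CPM in DMSO. Most of that sum was Itgb3 and Nfatc1, which other cells also express, while Acp5, the acid phosphatase of osteoclasts, had 6 counts in all. Reads on 1466 sensory receptor symbols, which these cells are not known to express, summed to 107.3 to 186 CPM in TBT, 57.9 to 71.8 CPM in ROSI and 285 to 754 CPM in DMSO (without TMM scaling), and their part in the results was not tested.

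Several of the members that fell with TBT carry the CACGTG core near their start. RefSeq windows of 300 bases (250 before and 50 after a start, build GRCm38.p6) were found for 35 of the 40 members, and for all but Asah1, Becn1, Ctsb, Ctsh and Map1lc3a. CACGTG, which reads the same on both strands, was in 11 of 35 member promoters (31.4%), in 11.8% of the promoters of genes tested here and in 8.09% of all genes with a window. The longer forms GTCACGTG or CACGTGAC, which contain the core, were in 7 of 35, in 4.76% of tested genes and in 2.55% of all. Of the 7 members that fell in TBT against DMSO, 4 held the core (Ctsa, Ctsd, Gla and Mcoln1), all of them in a longer form. Among the 27 members with a window that were not called in this comparison, 7 held the core and 3 a longer form. In ROSI against DMSO the core was in 1 of 6 members that rose, 0 of 2 that fell and 10 of 26 not called. In TBT against ROSI it was in 4 of 8 lower, 0 of 1 higher and 7 of 25 not called. These matches are a description of the letters, with no test. All core sites of Ctsa, Ctsd, Gla and Mcoln1 are printed because these genes fell in TBT against DMSO. Lamp1 was not called with all libraries. Without TBT replicate 4 it was lower in TBT than in DMSO and in ROSI (edgeR adjusted p = 0.025 and 0.035). For comparison, 1 of its 4 cores is added, the only core of Lamp1 in a longer form. Each is written 5′ to 3′ on the strand of the gene, with the core in capitals.
Ctsd, chr7:142387908-142387937, minus strand, core starting 98 bases before the start: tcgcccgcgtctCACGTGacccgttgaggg
Ctsd, chr7:142388048-142388077, minus strand, core starting 245 bases before the start: tccccCACGTGacctgtatccagtcattct
Mcoln1, chr8:3500436-3500465, plus strand, core starting 71 bases before the start: ggtcgcgcttgtCACGTGttcagttcaggc
Mcoln1, chr8:3500462-3500491, plus strand, core starting 45 bases before the start: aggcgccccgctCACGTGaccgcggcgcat
Gla, chrX:134601182-134601211, minus strand, core starting 194 bases before the start: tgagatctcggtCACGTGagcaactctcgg
Gla, chrX:134601215-134601244, minus strand, core starting 227 bases before the start: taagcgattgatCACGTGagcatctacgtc
Ctsa, chr2:164833749-164833778, plus strand, core starting 12 bases before the start: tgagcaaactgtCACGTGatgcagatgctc
Ctsa, chr2:164833766-164833795, plus strand, core starting 6 bases after the start: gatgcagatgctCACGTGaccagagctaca
Lamp1, chr8:13159121-13159150, plus strand, core starting 28 bases before the start: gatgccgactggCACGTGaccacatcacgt
The build of these positions is GRCm38.p6, while the counts were made on mm9.

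Different cathepsins were called with each ligand. Ctsd, the main aspartic protease of the lysosome, and Ctsa, a serine carboxypeptidase that also protects other lysosomal enzymes, fell with TBT. Ctsl, a cysteine endopeptidase, rose with ROSI. In all, 2 of 10 tested cathepsins fell and 0 rose in TBT against DMSO, beside 7.03% and 8.22% of all genes. In ROSI against DMSO 1 rose and 0 fell, beside 10.0% and 12.6% of all genes, so the rise was at that share. In TBT against ROSI 1 was higher and 2 lower, beside 12.8% and 11.1% of all genes. At an unadjusted p under 0.05, 3 were lower and 0 higher in TBT against DMSO. In ROSI against DMSO 4 were lower and 1 higher at that threshold. Over all 39 tested members, not the cathepsins alone, DESeq2 called 8 lower and 1 higher in TBT against DMSO. It called 3 lower and 6 higher in ROSI against DMSO.

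Ctsd (chromosome 7) was at 292, 269, 310.2 and 326 CPM in TBT replicates 1 to 4, 411, 378, 434 and 429 CPM in ROSI and 473.5, 539.5, 467 and 473 CPM in DMSO. All TBT libraries lay below all ROSI libraries, and all ROSI libraries lay below all DMSO libraries. The log2 fold change was -0.71 ± 0.11 (SE) in TBT against DMSO (edgeR adjusted p = 0.00089) and -0.46 ± 0.11 in TBT against ROSI (edgeR adjusted p = 0.0078), while ROSI against DMSO at -0.24 ± 0.11 was not called (edgeR adjusted p = 0.15). Both calls held in all 12 fits that left out 1 library. With GC-corrected offsets the TBT against ROSI value was -0.31 (edgeR adjusted p = 0.046), and it was -0.30 (edgeR adjusted p = 0.041) when TBT replicate 4 was left out as well.

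Ctsl (chromosome 13) was at 832, 951, 846.5 and 827 CPM in TBT, 1209, 1416, 1172 and 1245 CPM in ROSI and 903, 1030, 988 and 868 CPM in DMSO. The ROSI libraries did not overlap with either other group, while TBT and DMSO overlapped. It rose by 0.41 ± 0.12 in ROSI against DMSO (edgeR adjusted p = 0.019), which was no longer called without DMSO replicate 1 or 4 or ROSI replicate 2 (edgeR adjusted p of up to 0.061). In TBT it was lower than in ROSI by -0.54 ± 0.12 (edgeR adjusted p = 0.0039) in every fit without 1 library, and at -0.13 ± 0.12 it was not called against DMSO.

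Ctsa had 81.7, 81.1, 86.4 and 159 CPM in TBT replicates 1 to 4, 171, 145, 139 and 128 CPM in ROSI and 209, 215, 157 and 136 CPM in DMSO; its values by library, like those of Cd63 below, are given because replicate 4 stood apart in them. The first 3 TBT libraries lay below all others and replicate 4 lay within the DMSO range. It fell by 0.81 ± 0.21 on the log2 scale in TBT against DMSO (edgeR adjusted p = 0.016), and by 1.09 ± 0.16 without TBT replicate 4 (edgeR adjusted p = 6.8e-05). The call ended without DMSO replicate 1 or 2 or TBT replicate 1, 2 or 3, with an edgeR adjusted p of up to 0.057. Exons of Ctsa overlap those of Pltp and Neurl2 on the opposite strand, and the libraries carried no strand information.

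Ctsz, a cysteine carboxypeptidase, was higher in TBT than in ROSI, at 67.9 ± 11.9 CPM in TBT and 48.4 ± 7.56 CPM in ROSI (SD, n = 4). Its log2 fold change was 0.49 ± 0.17 (edgeR adjusted p = 0.047). The call ended in 8 of the 12 fits without 1 library, namely without DMSO replicate 2 or 3 or any of replicates 1 to 3 of ROSI and TBT (edgeR adjusted p of up to 0.17), and with any of 5 other settings (upper-quartile factors, DESeq2 size factors, limma, TBT and ROSI fitted alone, or a block for the replicate number, adjusted p of up to 0.071). With GC-corrected offsets and TBT replicate 4 left out it was 0.88.

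Among the remaining cathepsins, Ctsb, a cysteine protease, was at 1209 ± 267 CPM in TBT, 1250 ± 72.2 CPM in ROSI and 1639 ± 139 CPM in DMSO (SD, n = 4). Its log2 fold change against DMSO was -0.44 ± 0.15 with TBT (edgeR adjusted p = 0.053) and -0.39 ± 0.15 with ROSI (edgeR adjusted p = 0.066), both short of the threshold. With TBT replicate 4 left out, these became -0.59 ± 0.12 (edgeR adjusted p = 0.0016) and -0.39 ± 0.11 (edgeR adjusted p = 0.015), both past it. Ctsk, the collagen-degrading cathepsin of osteoclasts, had only 3.94 ± 1.56 CPM in TBT, 3.47 ± 1.21 CPM in ROSI and 5.93 ± 1.62 CPM in DMSO and was not called. Nor were Ctsc, a dipeptidyl peptidase, Ctsh, an aminopeptidase, Ctsf and Ctso. Over all uncalled cathepsins the log2 fold changes ran from -0.60 to 0.68 in TBT against DMSO, from -0.79 to 0.12 in ROSI against DMSO and from -0.51 to 0.56 in TBT against ROSI.

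**Figure D3:**
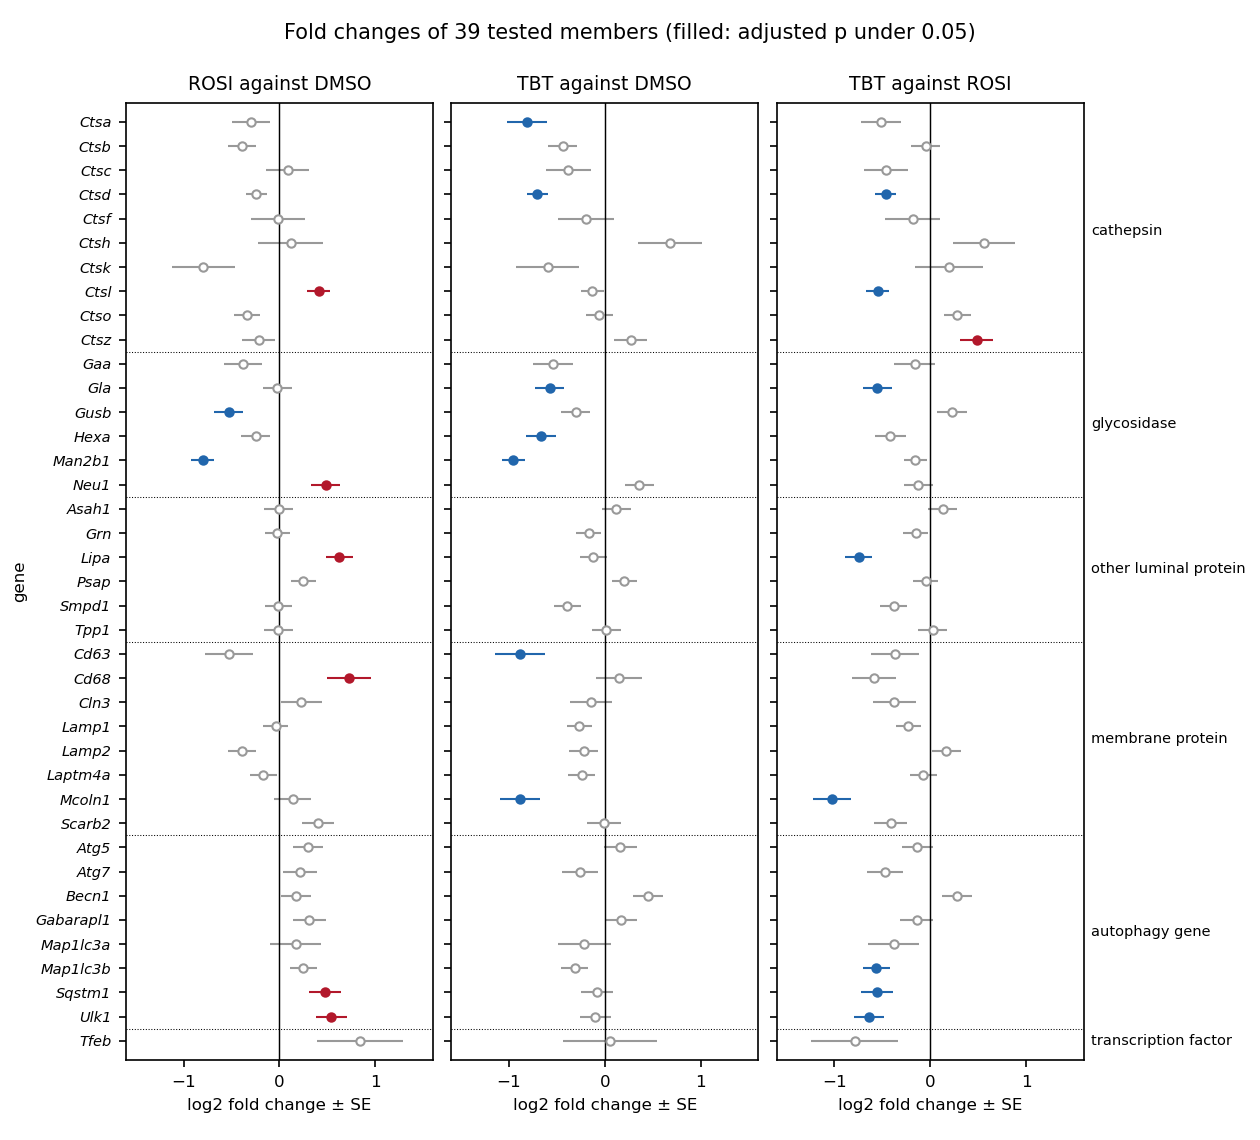
The x axis is the log2 fold change with its standard error for each of the 39 tested members, grouped by role, in 3 comparisons; filled points passed the threshold, red higher and blue lower in the treatment named first. The filled points against DMSO are all blue with TBT, and 6 red and 2 blue with ROSI.

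Of the 6 glycosidases, 3 fell and 0 rose with TBT, and 2 fell and 1 rose with ROSI, against DMSO. All genes gave 7.03% lower and 8.22% higher with TBT, and 12.6% lower and 10.0% higher with ROSI. At an unadjusted p under 0.05, 4 were lower and 1 higher with TBT. The clearest was Man2b1, the lysosomal alpha-mannosidase, which had 209, 197, 210 and 209 CPM in TBT, 247, 211, 250 and 209 CPM in ROSI and 420, 426, 345.5 and 409.5 CPM in DMSO. Every treated library lay below every DMSO library, and the treatments overlapped. It fell by 0.96 ± 0.12 on the log2 scale with TBT (edgeR adjusted p = 9.2e-05) and by 0.80 ± 0.12 with ROSI (edgeR adjusted p = 7.3e-05), and both calls held in every fit that left out 1 library and in the 12 other alternatives. Between TBT and ROSI it differed by -0.15 ± 0.12 and was not called (edgeR adjusted p = 0.34).

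Gla, alpha-galactosidase A, had 76.5, 62.1, 77.9 and 73.3 CPM in TBT, 118, 78.4, 112 and 117 CPM in ROSI and 130, 99.4, 107 and 95.5 CPM in DMSO. All TBT libraries lay below those of both other groups, which overlapped. The log2 fold change was -0.57 ± 0.15 in TBT against DMSO (edgeR adjusted p = 0.017) and -0.55 ± 0.15 in TBT against ROSI (edgeR adjusted p = 0.013). The first of these calls ended without DMSO replicate 1 or TBT replicate 2 (edgeR adjusted p of up to 0.064).

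Hexa, an enzyme subunit needed to break down gangliosides, fell by 0.66 ± 0.16 on the log2 scale with TBT (33.4 ± 8.50 CPM in TBT and 52.7 ± 5.203 CPM in DMSO, SD, n = 4, edgeR adjusted p = 0.011), a call kept in every fit without 1 library. Gusb, beta-glucuronidase, fell by 0.53 ± 0.15 with ROSI (14.4 ± 1.05 CPM in ROSI and 20.9 ± 0.551 CPM in DMSO, edgeR adjusted p = 0.019). That call ended without ROSI replicate 2 or 4 and without the filter on low counts (edgeR adjusted p of up to 0.066). Neu1, a sialidase that works in a complex with cathepsin A, was the glycosidase that rose with ROSI, by 0.48 ± 0.15 (33.7 ± 3.04 CPM in ROSI and 24.0 ± 4.31 CPM in DMSO, edgeR adjusted p = 0.029). The Neu1 call ended without DMSO replicate 1 or 2 or ROSI replicate 1 or 3 (edgeR adjusted p of up to 0.098) and with a replicate block. Gaa, the acid alpha-glucosidase that breaks down glycogen, was not called in any comparison, at -0.54 ± 0.21 in TBT against DMSO (edgeR adjusted p = 0.080) and -0.38 ± 0.20 in ROSI against DMSO. With TBT replicate 4 left out, it was at -0.78 ± 0.17 in TBT against DMSO (edgeR adjusted p = 0.0018).

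Among the other proteins of the lumen, Lipa was the 1 gene called among 6 tested. It was higher in ROSI against DMSO and lower in TBT against ROSI (16.7% of the 6 each), beside 10.0% and 11.1% of all genes. No luminal gene was called in TBT against DMSO, beside 8.22% higher and 7.03% lower of all genes. At an unadjusted p under 0.05, 1 luminal gene was lower and 0 were higher in that comparison. Lipa, which splits cholesteryl esters and triglycerides in the lysosome, had 237, 207, 211 and 199 CPM in TBT, 338.5, 278.5, 405 and 409 CPM in ROSI and 271, 224, 234 and 201 CPM in DMSO. All ROSI libraries lay above all TBT and DMSO libraries, which overlapped. It rose by 0.62 ± 0.14 in ROSI against DMSO (1.54-fold, edgeR adjusted p = 0.0033) and was lower in TBT than in ROSI by -0.75 ± 0.14 (edgeR adjusted p = 0.0012), and both calls held in every fit without 1 library and in the other alternatives. In TBT against DMSO the value was -0.12 ± 0.14 (edgeR adjusted p = 0.58). The same libraries had adipocyte markers at 3272 to 4239 CPM in TBT, 7111 to 8689 CPM in ROSI and 1391 to 3020 CPM in DMSO. Whether the Lipa values depend on the adipocyte share was not tested.

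The other 5 luminal genes were not called in any comparison. Psap, the precursor of the saposins that present sphingolipids to hydrolases, was at 362 ± 39.3 CPM in TBT, 374 ± 42.2 CPM in ROSI and 315 ± 42.2 CPM in DMSO (SD, n = 4). Grn, progranulin, was at 266.5 ± 30.7 CPM in TBT, 295 ± 36.4 CPM in ROSI and 299 ± 21.4 CPM in DMSO. No comparison of either gene was called. Tpp1, a tripeptidyl peptidase, was at 209.6 ± 38.2 CPM in TBT, 206 ± 19.6 CPM in ROSI and 208 ± 31.6 CPM in DMSO. For both sphingolipid enzymes, Asah1 (acid ceramidase) and Smpd1 (acid sphingomyelinase), the log2 fold changes against DMSO were 0.12 ± 0.15 and -0.39 ± 0.14 with TBT and -0.01 ± 0.15 and -0.01 ± 0.14 with ROSI. Smpd1 was close to the threshold with TBT (edgeR adjusted p = 0.069).

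**Figure D4:**
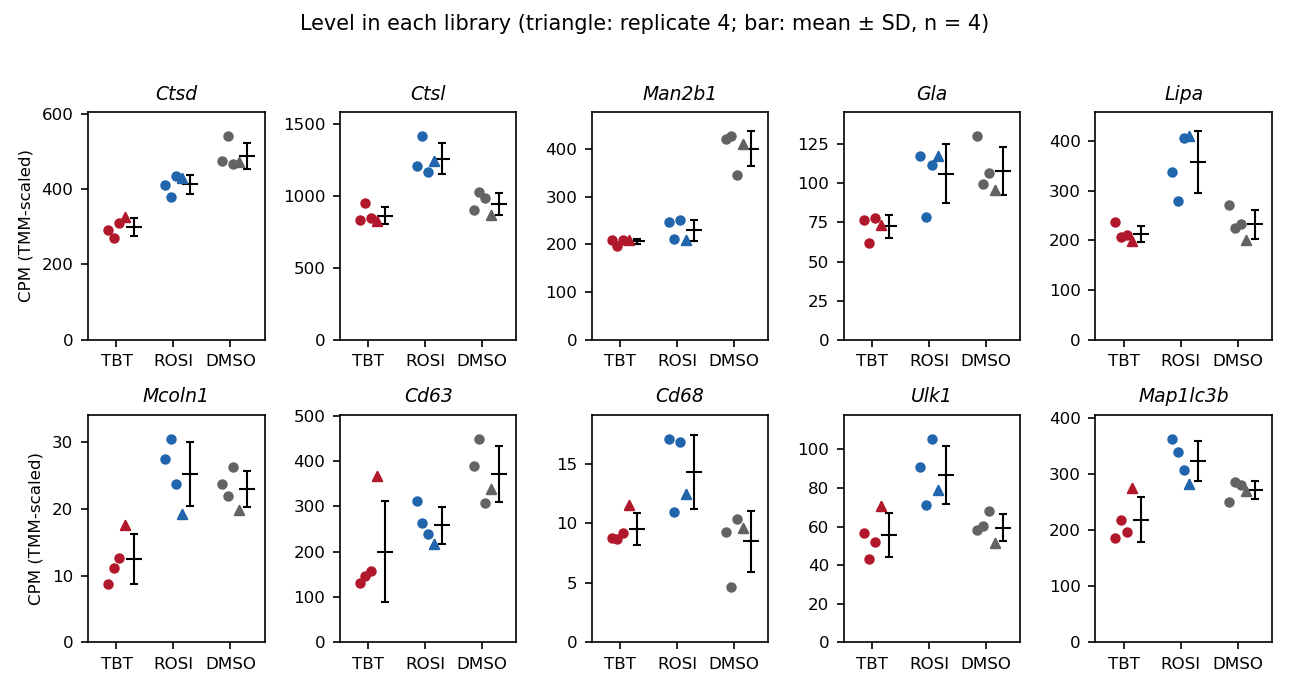
Level in CPM (y axis, from 0) in each library for 10 members, with TBT, ROSI and DMSO from left to right, replicate 4 as a triangle, and the mean ± SD (n = 4) as a bar. Ctsd, Gla and Mcoln1 are lowest in TBT, Ctsl and Lipa are highest in ROSI, Man2b1 is low in both, and TBT replicate 4 of Cd63 lies at 366 CPM beside 131 to 158 CPM in the other TBT libraries.

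Membrane proteins of the lysosome gave 2 members that fell and 0 that rose with TBT, and 1 that rose with ROSI, among 8 tested. The shares of all genes were 7.03% lower and 8.22% higher with TBT and 10.0% higher with ROSI. The 1 rise with ROSI (12.5% of the 8) was close to that share. At an unadjusted p under 0.05, 3 were lower and 0 higher in TBT against DMSO. Mcoln1, a cation channel that releases calcium from the lysosome, had the largest called difference of the set. It had 8.76, 11.2, 12.6 and 17.6 CPM in TBT, 27.6, 30.5, 23.8 and 19.3 CPM in ROSI and 23.8, 22.0, 26.3 and 19.9 CPM in DMSO. All TBT libraries lay below all ROSI and DMSO libraries, with replicate 4 nearest to them. The log2 fold change was -1.02 ± 0.20 in TBT against ROSI (edgeR adjusted p = 0.0019) and -0.88 ± 0.21 in TBT against DMSO (edgeR adjusted p = 0.010), and both calls held in every alternative run. With ROSI against DMSO it was at 0.14 ± 0.19 and not called.

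Cd63, a tetraspanin of lysosomes and secretory vesicles, had 131, 146, 158 and 366 CPM in TBT replicates 1 to 4, 312, 264, 239 and 216.5 CPM in ROSI and 389, 448, 307.5 and 337 CPM in DMSO. TBT replicates 1 to 3 lay below all others and replicate 4 lay within the DMSO range. It fell by 0.89 ± 0.26 on the log2 scale in TBT against DMSO (edgeR adjusted p = 0.028) and by 1.34 ± 0.15 without TBT replicate 4 (edgeR adjusted p = 8.6e-06). The call ended without DMSO replicate 1 or 2, without TBT replicate 1, 2 or 3 and in a fit of only the 2 groups (edgeR adjusted p of up to 0.090). Against ROSI it was at -0.37 ± 0.25 with all libraries and at -0.82 ± 0.15 without TBT replicate 4 (edgeR adjusted p = 0.31 and 0.00032). With ROSI against DMSO it was at -0.52 ± 0.25 and not called (edgeR adjusted p = 0.16), and at -0.52 ± 0.14 with TBT replicate 4 left out of the fit (edgeR adjusted p = 0.0071).

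Cd68, a glycoprotein of late endosomes that is abundant in macrophages, had 8.76, 8.69, 9.20 and 11.5 CPM in TBT, 17.1, 10.9, 16.8 and 12.4 CPM in ROSI and 9.27, 4.68, 10.4 and 9.64 CPM in DMSO. All ROSI libraries lay above all DMSO libraries. It rose by 0.73 ± 0.23 with ROSI (edgeR adjusted p = 0.031), which was lost without DMSO replicate 1 or 2 or ROSI replicate 1 or 3 (edgeR adjusted p of up to 0.091). In these libraries the summed macrophage markers were 9.23 to 18.3 CPM in ROSI and 18.9 to 31.1 CPM in DMSO.

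The major coat proteins were not called. Lamp1 was at 553 ± 82.6 CPM in TBT, 647 ± 49.3 CPM in ROSI and 664 ± 27.1 CPM in DMSO, and Lamp2 was at 1152 ± 170 CPM in TBT, 1025 ± 85.7 CPM in ROSI and 1344 ± 251 CPM in DMSO (SD, n = 4). Without TBT replicate 4, Lamp1 was lower in TBT than in DMSO by -0.36 ± 0.12 (edgeR adjusted p = 0.025). Scarb2, a membrane protein that also acts as a sorting receptor, lay higher in all ROSI than in all DMSO libraries, at 26.9 ± 2.68 CPM in ROSI and 20.3 ± 2.76 CPM in DMSO, with a log2 fold change of 0.40 ± 0.17 that was not called (edgeR adjusted p = 0.11). Cln3 and Laptm4a were not called either, with values from -0.37 to 0.23 over all comparisons.

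The 8 autophagy genes had fold changes above 0 with ROSI against DMSO, from 0.17 to 0.54 on the log2 scale (median 0.27), and 2 of them passed the threshold. Of all genes tested, 50.9% were above 0 in that comparison and 10.0% were called higher. With TBT 0 passed against DMSO, 3 values being above 0 and 5 below, and at an unadjusted p under 0.05 there was 1 in each direction. Against ROSI, 3 of 8 were lower in TBT and 0 higher, beside 11.1% and 12.8% of all genes. At an unadjusted p under 0.05, 4 were lower. DESeq2 over all members called 10 lower and 1 higher in TBT against ROSI.

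Ulk1, the kinase that starts autophagosome formation, had 56.8, 43.2, 51.98 and 70.7 CPM in TBT, 91.01, 71.1, 105 and 79.04 CPM in ROSI and 58.2, 60.4, 67.97 and 51.5 CPM in DMSO. The ROSI libraries lay above all others, with TBT replicate 4 just below the lowest of them. It rose by 0.54 ± 0.16 with ROSI against DMSO (edgeR adjusted p = 0.020) and was lower in TBT than in ROSI by -0.64 ± 0.16 (edgeR adjusted p = 0.0090). The first call ended without DMSO replicate 1 or 4 or ROSI replicate 3 (edgeR adjusted p of up to 0.073). The second held in every fit without 1 library, but with GC-corrected offsets it was at -0.39 (edgeR adjusted p = 0.060), and at -0.41 (edgeR adjusted p = 0.038) when TBT replicate 4 was also left out.

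Map1lc3b, the LC3 protein coupled to autophagosome membranes, had 185, 217, 196 and 275 CPM in TBT, 361.5, 339, 307 and 281 CPM in ROSI and 249.7, 286, 280.4 and 269.9 CPM in DMSO. All TBT libraries lay below all ROSI libraries, with TBT replicate 4 within the DMSO range. It was lower in TBT than in ROSI by -0.56 ± 0.14 (edgeR adjusted p = 0.0072), in every alternative run. Against DMSO it was at -0.32 ± 0.14 with TBT (edgeR adjusted p = 0.12) and 0.25 ± 0.14 with ROSI (edgeR adjusted p = 0.22), neither called. Without TBT replicate 4 the TBT value was -0.43 ± 0.12 (edgeR adjusted p = 0.012).

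Sqstm1, an adaptor that delivers ubiquitin-tagged cargo, was at 148 ± 33.1 CPM in TBT, 218 ± 40.2 CPM in ROSI and 156.5 ± 21.4 CPM in DMSO (SD, n = 4). It rose by 0.48 ± 0.17 with ROSI against DMSO (edgeR adjusted p = 0.048), and was lower in TBT than in ROSI by -0.56 ± 0.17 (edgeR adjusted p = 0.023). The ROSI against DMSO call ended in 8 of 12 fits without 1 library (any DMSO library, ROSI replicate 1 or 2, or TBT replicate 1 or 2, edgeR adjusted p of up to 0.17) and with upper-quartile factors, a stricter filter or a replicate block. The other ended without ROSI replicate 1 or 2 or TBT replicate 1, 2 or 3 (edgeR adjusted p of up to 0.091).

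Becn1, a subunit of the lipid kinase complex of autophagy, was at 74.8 ± 19.02 CPM in TBT, 61.7 ± 7.54 CPM in ROSI and 54.8 ± 4.42 CPM in DMSO. Its log2 fold change in TBT against DMSO was 0.45 ± 0.16 (edgeR adjusted p = 0.064), and without TBT replicate 4 it was 0.58 ± 0.15 (edgeR adjusted p = 0.0058). Its exons overlap those of Cntd1 on the opposite strand. Gabarapl1, a GABARAP family protein, lay higher in every ROSI library than in every DMSO library, at 746 ± 94.1 CPM in ROSI and 601.5 ± 100.2 CPM in DMSO, and was not called (0.31 ± 0.17, edgeR adjusted p = 0.21). Map1lc3a, Atg5 and Atg7, the last an enzyme that activates LC3 and ATG12 for coupling, were not called in any comparison.

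Tfeb itself was at the lower end of detection. It had 1.97, 0.579, 1.07 and 1.96 CPM in TBT, 3.26, 1.90, 2.33 and 2.41 CPM in ROSI and 0.238, 1.87, 1.24 and 1.90 CPM in DMSO, or 113 counts in all 12 libraries. ROSI libraries lay at the top with overlap, and no comparison was called. The log2 fold change was 0.84 ± 0.45 in ROSI against DMSO and -0.79 ± 0.45 in TBT against ROSI (edgeR adjusted p = 0.21 each), and 0.05 ± 0.49 in TBT against DMSO (edgeR adjusted p = 0.95). Among its relatives and the kinase complex mTORC1, which keeps TFEB out of the nucleus, 30 of 31 listed genes were tested. In TBT against DMSO 1 rose (Rragd, a GTPase of mTORC1 recruitment, 0.99 ± 0.22) and 1 fell (Mitf, a factor related to TFEB, -0.50 ± 0.12). With ROSI 4 rose, with the smallest p for Lamtor1, which anchors those GTPases (0.70 ± 0.15), and 4 fell, with the smallest p for Mtor, the kinase itself (-0.64 ± 0.14). In TBT against ROSI 3 were higher, with the smallest p for Deptor, an mTOR inhibitor (0.57 ± 0.12), and 3 lower, with the smallest p for Sesn2, a leucine sensor induced by stress (-1.56 ± 0.30). In each direction these were 3.33% of the 30 with TBT, 13.3% with ROSI and 10% in TBT against ROSI. All genes gave 8.22% higher and 7.03% lower with TBT, 10.0% and 12.6% with ROSI, and 12.8% and 11.1% in TBT against ROSI. The counts were thus near those shares or below them. With TBT replicate 4 left out, 1 rose and 5 fell in TBT against DMSO, and 3 were higher and 8 lower in TBT against ROSI. In those fits 16.6% of all genes rose and 16.1% fell, and 19.9% were higher and 18.3% lower.

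The V-ATPase is the proton pump that acidifies the lysosome. Of its 19 subunits and accessory genes, 9 were lower and 0 higher in TBT against ROSI (median log2 fold change -0.42), beside 11.1% and 12.8% of all genes. The smallest p was that of Atp6v0b, at 25.1 ± 11.5 CPM in TBT and 47.5 ± 7.47 CPM in ROSI (-0.92 ± 0.23). With ROSI 4 rose and 0 fell against DMSO, with the smallest p for Atp6v1d (0.47 ± 0.12), and with TBT 0 rose and 1 fell, Atp6v1e1 (-0.71 ± 0.22). The shares of all genes were 10.0% higher and 12.6% lower with ROSI, and 8.22% and 7.03% with TBT. The 1 fall with TBT (5.26% of the 19) was below that share. When TBT replicate 4 was left out, 12 were lower and 0 higher in TBT against ROSI, 1 rose and 5 fell in TBT against DMSO, and 5 rose and 0 fell in ROSI against DMSO. All genes were then 18.3% lower and 19.9% higher in TBT against ROSI. They were 16.6% higher and 16.1% lower in TBT against DMSO, and 12.9% and 15.1% in ROSI against DMSO.

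Other hydrolases went both ways. Of 30 tested, 4 rose and 4 fell with TBT against DMSO, with the smallest p among the rises for Ids, iduronate sulfatase (0.80 ± 0.18). With ROSI 1 rose, the serine carboxypeptidase Scpep1 (0.50 ± 0.14), and 4 fell. In TBT against ROSI 5 were higher and 1 lower, Scpep1 (-0.50 ± 0.14). With TBT replicate 4 left out, 5 rose and 10 fell in TBT against DMSO, 2 rose and 6 fell in ROSI against DMSO, and 5 were higher and 8 lower in TBT against ROSI. Of 15 other membrane proteins, Ostm1, a chloride channel subunit, rose with TBT (0.54 ± 0.16), Npc1, which exports cholesterol, rose with ROSI (0.40 ± 0.13), and 3 were lower in TBT than in ROSI, with the smallest p for Npc1 (-0.76 ± 0.13). Of the 15, when that library was left out, 6 fell and 1 rose in TBT against DMSO, and 7 were lower and 1 higher in TBT against ROSI. For both lists, the shares of all genes with all libraries were 8.22% higher and 7.03% lower in TBT against DMSO. In ROSI against DMSO they were 10.0% and 12.6%, and in TBT against ROSI 12.8% and 11.1%. The 4 hydrolases that fell with ROSI (13.3% of the 30) were close to that share. Without TBT replicate 4, the shares of all genes were 16.6% higher and 16.1% lower in TBT against DMSO. They were 12.9% and 15.1% in ROSI against DMSO, and 19.9% and 18.3% in TBT against ROSI.

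The largest increase among these lists was that of 1 gene of sorting to the lysosome. Sort1, sortilin, a sorting receptor also of fat-cell glucose transporter vesicles, was at 29.04 ± 3.09 CPM in TBT, 59.6 ± 3.35 CPM in ROSI and 16.6 ± 5.06 CPM in DMSO (SD, n = 4). It rose by 1.82 ± 0.18 with ROSI (edgeR adjusted p = 1.9e-06) and by 0.78 ± 0.18 with TBT (edgeR adjusted p = 0.0097), and differed by -1.04 ± 0.17 in TBT against ROSI (edgeR adjusted p = 0.00042). Of the other 13 sorting genes, only Gnptg, a subunit of the enzyme that makes the mannose phosphate tag, was called, higher with ROSI (0.38 ± 0.13, edgeR adjusted p = 0.045), a gene chosen after its values were seen. Of the 14 sorting genes, 2 rose and 0 fell with ROSI against DMSO (median log2 fold change -0.02), beside 10.0% and 12.6% of all genes. With TBT 1 rose and 0 fell, beside 8.22% and 7.03%. In TBT against ROSI 0 were higher and 1 lower, beside 12.8% and 11.1%. With TBT replicate 4 left out, 3 sorting genes rose and 0 fell in TBT against DMSO, and 3 were higher and 1 lower in TBT against ROSI. In those fits 16.6% of all genes tested rose and 16.1% fell, and 19.9% were higher and 18.3% lower.

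Of 42 other autophagy genes tested, 6 rose and 1 fell with each ligand against DMSO. Bnip3l, a receptor for the removal of mitochondria, had the smallest p among the rises of both, at 515 ± 40.8 CPM in TBT, 483 ± 76.3 CPM in ROSI and 303 ± 37.8 CPM in DMSO (0.76 ± 0.14 with TBT and 0.67 ± 0.14 with ROSI). The genes that fell were Zfyve1, a lipid-binding protein of early autophagosome membranes, with TBT (-0.75 ± 0.21) and Wdfy3, a scaffold for aggregate removal, with ROSI (-0.44 ± 0.11). In TBT against ROSI 2 were higher, with the smallest p for Pik3r4 of the lipid kinase complex (0.58 ± 0.17), and 7 lower, with the smallest p for Atg12, a ubiquitin-like protein (-0.92 ± 0.21). When TBT replicate 4 was left out, 10 rose and 9 fell in TBT against DMSO, and 7 were higher and 11 lower in TBT against ROSI. The shares of all genes also grew without that library, to 16.6% higher and 16.1% lower in TBT against DMSO. They were 19.9% higher and 18.3% lower in TBT against ROSI. Over all 6 lists, 8.67% of 150 genes rose and 4.67% fell in TBT against DMSO, beside 8.22% and 7.03% of all genes. With ROSI against DMSO 12.0% rose and 6.00% fell, beside 10.0% and 12.6% of all genes. Of the 150 genes, 10 were higher and 24 lower in TBT against ROSI, beside 12.8% and 11.1% of all genes.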

How the data were processed

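RNA was measured in 12 libraries, 4 for each of TBT, ROSI and DMSO. The labels' protocols name depletion of ribosomal RNA and a library kit that keeps no strand. The authors deposited raw read counts per gene symbol, and a second table of regularized-log values, whose scale is log2. The submitters' processing notes name the genome build mm9 and the tools DESeq2, SAMtools and FastQC. No aligner, counter or annotation is named there. Library totals ran from 4027152 to 7474654 counts.

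Columns were mapped to treatments and replicates by the library titles. Counts were analysed with edgeR 4.0.16 in R 4.3.3: filterByExpr by treatment (12323 genes kept), TMM factors, and 1 quasi-likelihood model of all 12 libraries without covariates. P-values were adjusted by the Benjamini-Hochberg method over all genes tested (threshold 0.05), and each SE was taken as the log2 fold change over the square root of F. The deposited log2 values entered 1 alternative only, with limma 3.58.1. The scripts were tested on simulated data. Libraries of a treatment were not copies, with a chi-square per degree of freedom of at least 4.66 over 18 pairs.

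The members, the other gene lists and the tests were chosen with earlier results of these data known. Full values by library are given for Tfeb and for the called member with the smallest p in each role and comparison. Of other lists, the called gene with the smallest p in each direction is named, apart from results that are not reported here. Exon overlaps and GC content (mean over coding transcripts) came from GENCODE M21 (GRCm38), and 12 members have exons that overlap a gene on the opposite strand. Ctsd also shares exons with Gm49369 on its own strand. Promoter sequences came from RefSeq, build GRCm38.p6. Alternatives were upper-quartile or DESeq2 size factors, DESeq2 1.42.0 itself, a block for the replicate number, a stricter filter (mean CPM of 5 or more) or none, a fit of the compared groups alone, removal of Rn45s, the precursor of ribosomal RNA, and leaving out libraries. GC-corrected offsets (lowess per library) were added after seeing the data.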

Additional observations from a re-analysis of the deposited data

Results flagged for a closer look

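Of 120 sets of 4 libraries (40 members in 3 treatments), 9 had a library whose gap to the nearest of the others exceeded the 95% critical value of the Dixon test. Chance alone flags about 1 in 20 sets. In TBT replicate 4, Ctsa was at 159 CPM beside 81.1 to 86.4 CPM in the other TBT libraries, and Cd63 at 366 CPM beside 131 to 158 CPM. In TBT replicate 2, Ctsl was at 951 CPM beside 827 to 846 CPM, and Man2b1 at 197 CPM beside 209 to 210 CPM. In ROSI replicate 2, Gla was at 78.4 CPM beside 112 to 118 CPM, and Gabarapl1 at 886 CPM beside 690 to 705 CPM. In DMSO replicate 2, Ctsd was at 540 CPM beside 467 to 474 CPM, Ctsk at 3.51 CPM beside 6.65 to 6.80 CPM and Atg5 at 15.4 CPM beside 18.96 to 19.48 CPM.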

How the results depend on the processing

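Of the 24 called member results, 13 kept their call in all 12 fits that left out 1 library, 18 in the 12 other alternatives and 12 in all of these, and 0 changed sign. Of 93 results that were not called, 26 were called in at least 1 alternative. Leaving out 1 library in turn, the members called ranged from 3 to 10 in ROSI against DMSO (1 to 6 higher, 1 to 4 lower), from 4 to 13 in TBT against DMSO (0 to 2 higher, 4 to 11 lower) and from 7 to 17 in TBT against ROSI (0 to 2 higher, 7 to 15 lower). In TBT against DMSO, leaving out DMSO replicate 3 and TBT replicate 4 together gave 13 called (1 higher, 12 lower), GC-corrected offsets gave 2 higher, the same without TBT replicate 4 gave 14 called (3 higher, 11 lower), and DESeq2 gave 1 higher. In TBT against ROSI, leaving out those 2 libraries gave 18 called (17 lower), and GC-corrected offsets without TBT replicate 4 gave 15 (2 higher, 13 lower). The 1 member higher there became 0 with DESeq2 size factors, upper-quartile factors, a replicate block, only the 2 groups or limma. In ROSI against DMSO the 2 members lower became 5 with only the 2 groups, 4 without those 2 libraries and 5 with GC-corrected offsets without TBT replicate 4. The causes were not tested. The replicate numbers did not pair the libraries: deviations of libraries with the same number correlated at -0.432 to 0.138, and 1 of 12 libraries was closest to its own number. With the number as a block, 6 members were called in ROSI against DMSO, 7 in TBT against DMSO and 8 in TBT against ROSI, and over all genes 2289, 1160 and 2154, against 2787, 1879 and 2940 without the block. On the deposited log2 values, which are shrunken, folds were smaller, with Mcoln1 at -0.57 in TBT against DMSO. Depth limits the lowest members, since Tfeb had 113 counts over all libraries and Ctss 13.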
